A study of Mus musculus with 69 samples.

Results

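The interleukin-1 system and the inflammasome were examined in mouse lung after instillation of nano-sized titanium dioxide. The set held 10 of the 18656 gene symbols tested on the arrays: Il1a, Il1b, Il1rn, Il1r1, Il1r2, Il18, Il33, Nlrp3, Casp1 and Pycard. They were chosen as named parts of this system, with earlier results of these data known, and a probe was taken where the accession given for it matched one of these RefSeq symbols. These symbols were measured by 14 probes, with 2 probes each for Il1a, Il1rn, Il1r2 and Pycard and 1 for each of the others. The arrays carried 69 lungs, each from 1 female C57BL/6 mouse that was 5 to 7 weeks old on arrival and was acclimatised for 1 to 3 weeks. A mouse received a single intratracheal instillation of 18, 54 or 162 µg of NRCWE-025 or NRCWE-030, which are both titanium dioxide nanomaterials, or of the vehicle alone, water with 2% serum. Lungs were taken on day 1 or day 28, which gave 14 groups of 5 mice, except that NRCWE-025 at 162 µg had 4 on day 28. The vehicle group of a day served as control for both materials, so the contrasts of both materials of a day share their controls. A small piece of frozen lung was used for RNA, so the values hold every cell type of that piece.

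Interleukin-1 alpha (Il1a) and interleukin-1 beta (Il1b) are the ligands that start much of the acute inflammatory response by binding the signalling receptor Il1r1. Il1rn encodes the receptor antagonist, which occupies Il1r1 without signalling, and Il1r2 encodes a decoy receptor that binds the ligand without passing on a signal. Interleukin-1 beta and interleukin-18 (Il18) are made as inactive precursors that caspase-1 (Casp1) cuts, after the sensor Nlrp3 and the adaptor Pycard, also called ASC, have assembled into an inflammasome. Il33 encodes a related alarmin stored in the nucleus of lining cells. Inhaled particles are a known trigger of this system in lung macrophages, and much of its control lies after transcription, which arrays do not see.

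Every value below is the log2 ratio of lung RNA to a common mouse reference RNA on the same array, so it tells how a gene moved between lungs and not how abundant it was beside another gene. A gene is described as called where the Benjamini-Hochberg adjusted p of limma's test, taken over all 18656 genes, was under 0.05. Each share of all genes or probes below is a share called. The share of all genes or probes at an unadjusted p under 0.05 is not given. Counts of the set or of a list at that threshold therefore have no background to be read against. In this bulk tissue, fewer cells of a type and less RNA per cell cannot be told apart. Between 49.1% and 72.8% of spots per array (median 62.1%) were well above background in the lung channel, no spot of a gene was saturated, and the defining markers of lung epithelium and endothelium were well above background on all 69 arrays. The lung of 1 mouse given 18 µg of NRCWE-030 (day 1, replicate 3; r = 0.904 with the median array over all genes), 1 given 54 µg of NRCWE-025 (day 28, replicate 5; r = 0.919) and 1 given 54 µg of NRCWE-030 (day 1, replicate 5; r = 0.944) were least like the others, and calls that moved without these 3 arrays are named beside the result. The arrays lay on 19 slides scanned on 11 days.

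On day 1 after 162 µg of NRCWE-030, the ligand Il1b and both of the molecules that restrain it, the antagonist Il1rn and the decoy receptor Il1r2, were higher than in vehicle lungs. Thus 3 of the 10 genes were called in this contrast, all of them higher, where 1.69% of all genes were called and 1.22% were called as higher. The signalling receptor Il1r1, the other ligands Il1a, Il18 and Il33, and the inflammasome genes Nlrp3, Casp1 and Pycard did not pass the test. With dose tested as a whole, 2 of the 10 genes were called for NRCWE-030 on day 1, Il1rn and Il1r2 (adjusted p = 0.000481 and 0.00195), where 0.954% of all genes were. They ranked 8 and 13 by p among all genes tested. Without the 3 arrays least like the others, Il1b and Pycard joined them, which gave 4 genes called for dose.

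The sequences just before the transcription start sites of the 3 called genes are shown because these genes moved together, and because Il1rn starts from more than 1 site. They are the 250 bases before each start site in the RefSeq annotation of build GRCm38.p6, written 5′ to 3′ on the gene's strand. Il1b lies on the minus strand at chr2:129371140-129371389. Il1rn lies on the plus strand, with one window at chr2:24336610-24336859 and another at chr2:24345041-24345290, and a further window that overlaps the latter is not printed. Il1r2 lies on the plus strand at chr1:40085843-40086092. Capitals mark matches, on either strand, to AP-1 (TGANTCA), to a C/EBP-type motif (TTNNGNAA), to the TATA box, spelled TATAAA, or to the NF-kB consensus.
Il1b: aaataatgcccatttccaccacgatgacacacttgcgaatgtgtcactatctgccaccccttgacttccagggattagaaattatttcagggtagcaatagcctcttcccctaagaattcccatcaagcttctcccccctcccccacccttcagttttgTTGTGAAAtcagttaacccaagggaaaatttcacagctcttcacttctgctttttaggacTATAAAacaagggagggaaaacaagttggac
Il1rn, upstream start: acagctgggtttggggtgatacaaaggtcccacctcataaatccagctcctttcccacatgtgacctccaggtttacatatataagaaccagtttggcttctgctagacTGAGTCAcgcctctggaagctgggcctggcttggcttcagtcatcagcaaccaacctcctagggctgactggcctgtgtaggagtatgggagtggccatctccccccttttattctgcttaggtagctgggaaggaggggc
Il1rn, downstream start: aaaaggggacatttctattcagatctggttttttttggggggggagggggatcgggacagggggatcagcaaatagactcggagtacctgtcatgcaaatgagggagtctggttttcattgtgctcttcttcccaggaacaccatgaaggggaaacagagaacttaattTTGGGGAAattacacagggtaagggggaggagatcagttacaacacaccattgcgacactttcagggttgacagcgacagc
Il1r2: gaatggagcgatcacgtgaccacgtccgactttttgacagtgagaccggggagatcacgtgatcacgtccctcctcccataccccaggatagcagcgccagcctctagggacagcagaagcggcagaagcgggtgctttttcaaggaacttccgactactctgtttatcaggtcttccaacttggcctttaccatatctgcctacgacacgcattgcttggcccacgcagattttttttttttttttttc
Il1b held a C/EBP-type match from position -91 and a TATA box from position -31, counted back from the start site. The upstream Il1rn window held an AP-1 match from -141, where the motif matches on both strands, and the downstream window held a C/EBP-type match from -81. The Il1r2 window held none of these letters. Of all 32841 windows of this length, 7.25% held the NF-kB consensus, 6.75% the AP-1 motif, 36.9% the C/EBP-type motif and 12.4% the TATA box. Of the 15 windows of the 10 genes, 11 windows in 7 genes held a C/EBP-type match and 5 in 4 genes a TATA box. The 15 windows include the Il1rn window that is not printed. It holds the C/EBP-type match of the downstream window again, so that match is counted in both. AP-1 was found in 2 windows, of Il1a and Il1rn, and NF-kB in 2, of Il1r1 and Nlrp3. A match is only a match of letters, and the arrays did not measure binding.

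Il1b was the called ligand. Its log2 ratios in the 5 vehicle lungs of day 1 were 1.57, 1.84, 1.90, 1.93 and 2.28 (mean 1.90 ± 0.25, SD, n = 5), and after 162 µg of NRCWE-030 they were 2.61, 2.67, 3.31, 3.53 and 3.78 (3.18 ± 0.52, SD, n = 5). All 5 exposed lungs lay above all vehicle lungs. The log2 difference was 1.27 (SE 0.26, 95% interval 0.73 to 1.82), a 2.42-fold difference (limma adjusted p = 0.0154). At the lower doses the levels overlapped those of the vehicle, at 1.88 to 3.11 after 18 µg and 2.02 to 3.05 after 54 µg, and neither dose was called (adjusted p = 0.752 and 0.557). The test over all doses gave an adjusted p of 0.0699. The call at 162 µg was lost with slide as a fixed block (log2 difference 1.48, adjusted p = 0.0577), with scan day as a fixed block (1.37, adjusted p = 0.095) and without replicate 2 of the 162 µg group (1.19, adjusted p = 0.0518). Within each of the 2 slides that carried both groups the difference was 1.46 and 1.84, and within each of the 2 scan days it was 1.14 and 1.84.

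Il1a, the other ligand of the same receptor, was barely detected. Its probes were well above background on 5 and 2 of the 69 arrays, and on none of the vehicle lungs of day 1, so no difference is given for day 1. On day 28 the better detected probe was above background in 2 of 5 lungs given 162 µg of NRCWE-030 and in no vehicle lung. With most exposed lungs at background no size of difference is given, and the gene was not called (adjusted p = 0.509).

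The antagonist Il1rn gave an even response. Its log2 ratios were -0.20, -0.08, 0.04, 0.08 and 0.11 in vehicle lungs of day 1 (mean -0.01 ± 0.13, SD, n = 5) and 0.78, 0.80, 0.91, 0.99 and 1.06 after 162 µg of NRCWE-030 (0.90 ± 0.12, SD, n = 5). The groups did not overlap, and the exposed lungs spread no more than the controls. The log2 difference was 0.92 (SE 0.11, 95% interval 0.68 to 1.15), a 1.89-fold difference (adjusted p = 0.000196). After 54 µg the levels ran from 0.12 to 0.76, above every vehicle lung in all 5 mice, with a log2 difference of 0.54 that was not called (adjusted p = 0.0697). After 18 µg they ran from -0.12 to 0.23 and overlapped the vehicle. The value of this gene is the median of a detected and an undetected probe, which lowers it, and the detected probe alone gave a log2 difference of 1.77. Within slides the gene's difference was 0.76 and 0.91.

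Among the receptors, the decoy Il1r2 and the signalling Il1r1 are described in turn. Il1r2 had log2 ratios of 0.21, 0.26, 0.36, 0.37 and 0.37 in vehicle lungs of day 1 (mean 0.32 ± 0.08, SD, n = 5) and 1.06, 1.28, 1.60, 2.05 and 2.38 after 162 µg of NRCWE-030 (1.67 ± 0.54, SD, n = 5). No exposed lung overlapped the controls, and the exposed lungs were spread wider than the controls. The log2 difference was 1.36 (SE 0.19, 95% interval 0.96 to 1.76), a 2.56-fold difference (adjusted p = 0.00111). After 54 µg the 5 lungs lay between 0.65 and 1.34, all above the vehicle lungs, but the difference of 0.73 was not called (adjusted p = 0.144), and after 18 µg they lay between 0.20 and 0.60. This gene's value, too, is the median of a detected probe and of one above background in no vehicle lung of day 1, and the brighter probe alone gave a difference of 2.02, or 4.05-fold. With the log ratio that the scanner software had computed, the difference at 162 µg was 3.16. Within slides it was 1.23 and 1.67.

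Il1r1, the receptor that signals, ran from 0.26 to 0.82 in vehicle lungs of day 1 and from 0.54 to 0.97 after 162 µg of NRCWE-030. The ranges overlapped, and the log2 difference of 0.21 (95% interval -0.06 to 0.47) did not pass the test (adjusted p = 0.561).

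**Figure D1:**
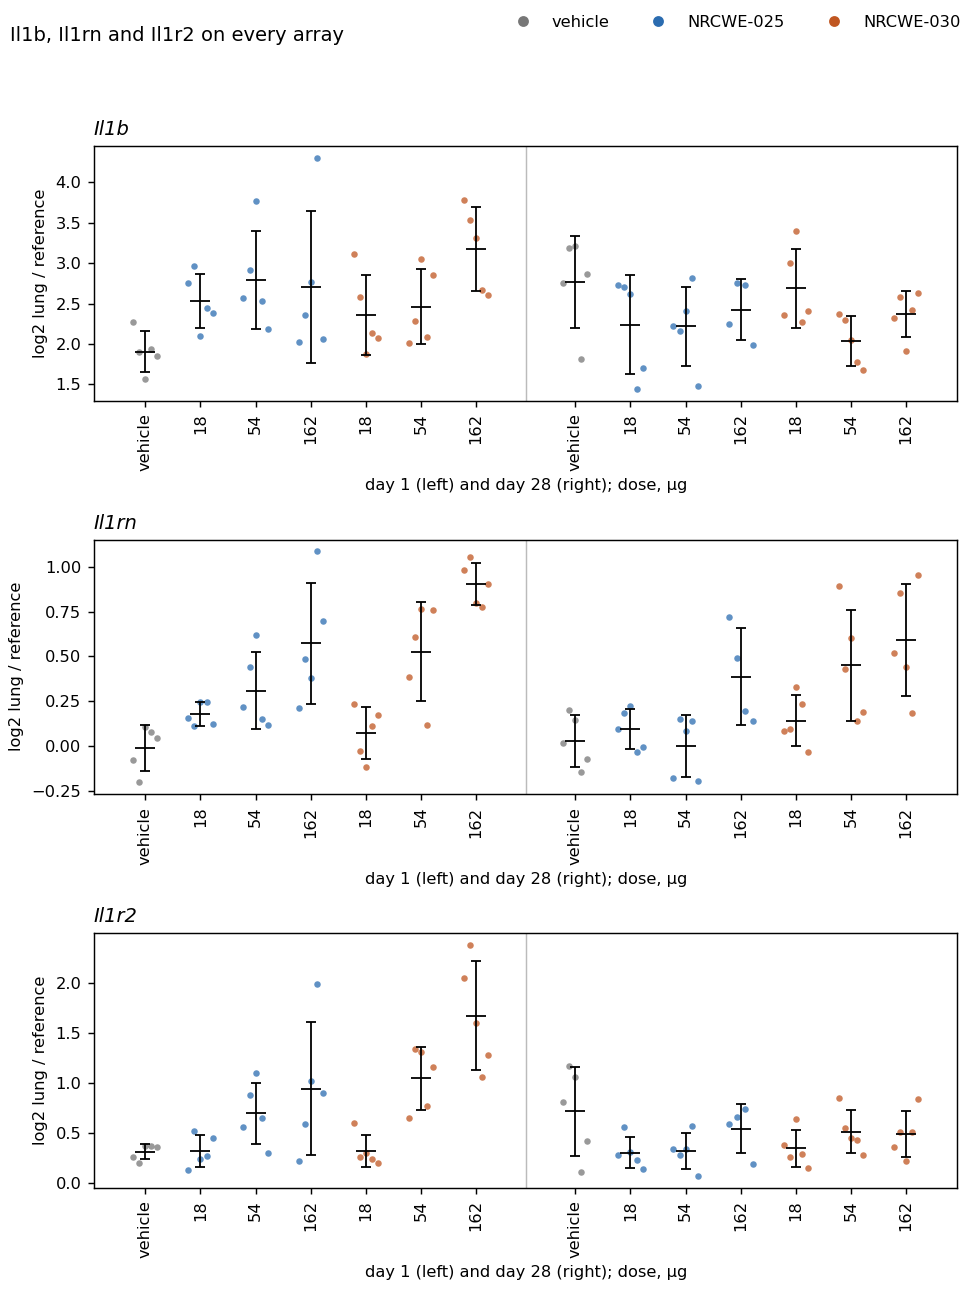
The plot shows the log2 ratio of lung to reference RNA (y axis) in every group (x axis: vehicle and dose in µg, day 1 at the left and day 28 at the right) for Il1b, Il1rn and Il1r2. Points are single lungs, coloured by material, and bars are group means with SD. On day 1 after 162 µg of NRCWE-030 the 5 lungs lie above all vehicle lungs for each gene. On day 28 the range after that dose overlaps that of the vehicle for each gene, with 4 of 5 lungs above all vehicle lungs for Il1rn.

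Il33 and Il18, the ligands of other receptors of the family, did not pass the test. Il33, an alarmin of epithelial and endothelial cells, ran from 1.09 to 2.04 in vehicle lungs of day 1 and from 1.90 to 3.21 after 162 µg of NRCWE-030, with 3 of 5 exposed lungs above all controls. Its log2 difference was 0.76 (SE 0.22, adjusted p = 0.0841), and it was called when all 14 groups were fitted together (adjusted p = 0.0417) or slide was a random block (adjusted p = 0.0421). Il18 went the other way in value. It ran from 1.02 to 1.69 in vehicle lungs and from -0.17 to 1.79 in exposed ones, so the exposed group held both the lowest and the highest lung, and the difference of -0.54 had a wide interval of -1.17 to 0.09 (adjusted p = 0.502).

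Of the inflammasome genes, the adaptor Pycard came nearest to a call. Its log2 ratios ran from 0.92 to 1.16, with a median of 1.09, in vehicle lungs of day 1 and were 1.41, 1.53, 1.55, 1.64 and 1.82 after 162 µg of NRCWE-030. All 5 exposed lungs lay above the controls. The log2 difference of 0.54 (SE 0.15) had an adjusted p of 0.0815, and of 0.0183 without the 3 arrays least like the others, or 0.024 without replicate 3 of the 18 µg group alone. With the brightest probe of each gene the difference was 0.58 and was called as well (adjusted p = 0.0217). The protease Casp1 ran from -1.33 to -0.72 in vehicle lungs and from -1.01 to -0.70 in exposed ones, a difference of 0.09 (95% interval -0.15 to 0.34). The sensor Nlrp3, whose probe was well above background on 49 of 69 arrays, was above it in 4 of 5 vehicle lungs and 3 of 5 exposed ones. Its log2 ratios ran from -0.06 to 0.17 and from -0.21 to 0.31, and signal this near background can hide a change of the transcript (adjusted p = 0.951). None of these values tells of the activity of the proteins.

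**Figure D2:**
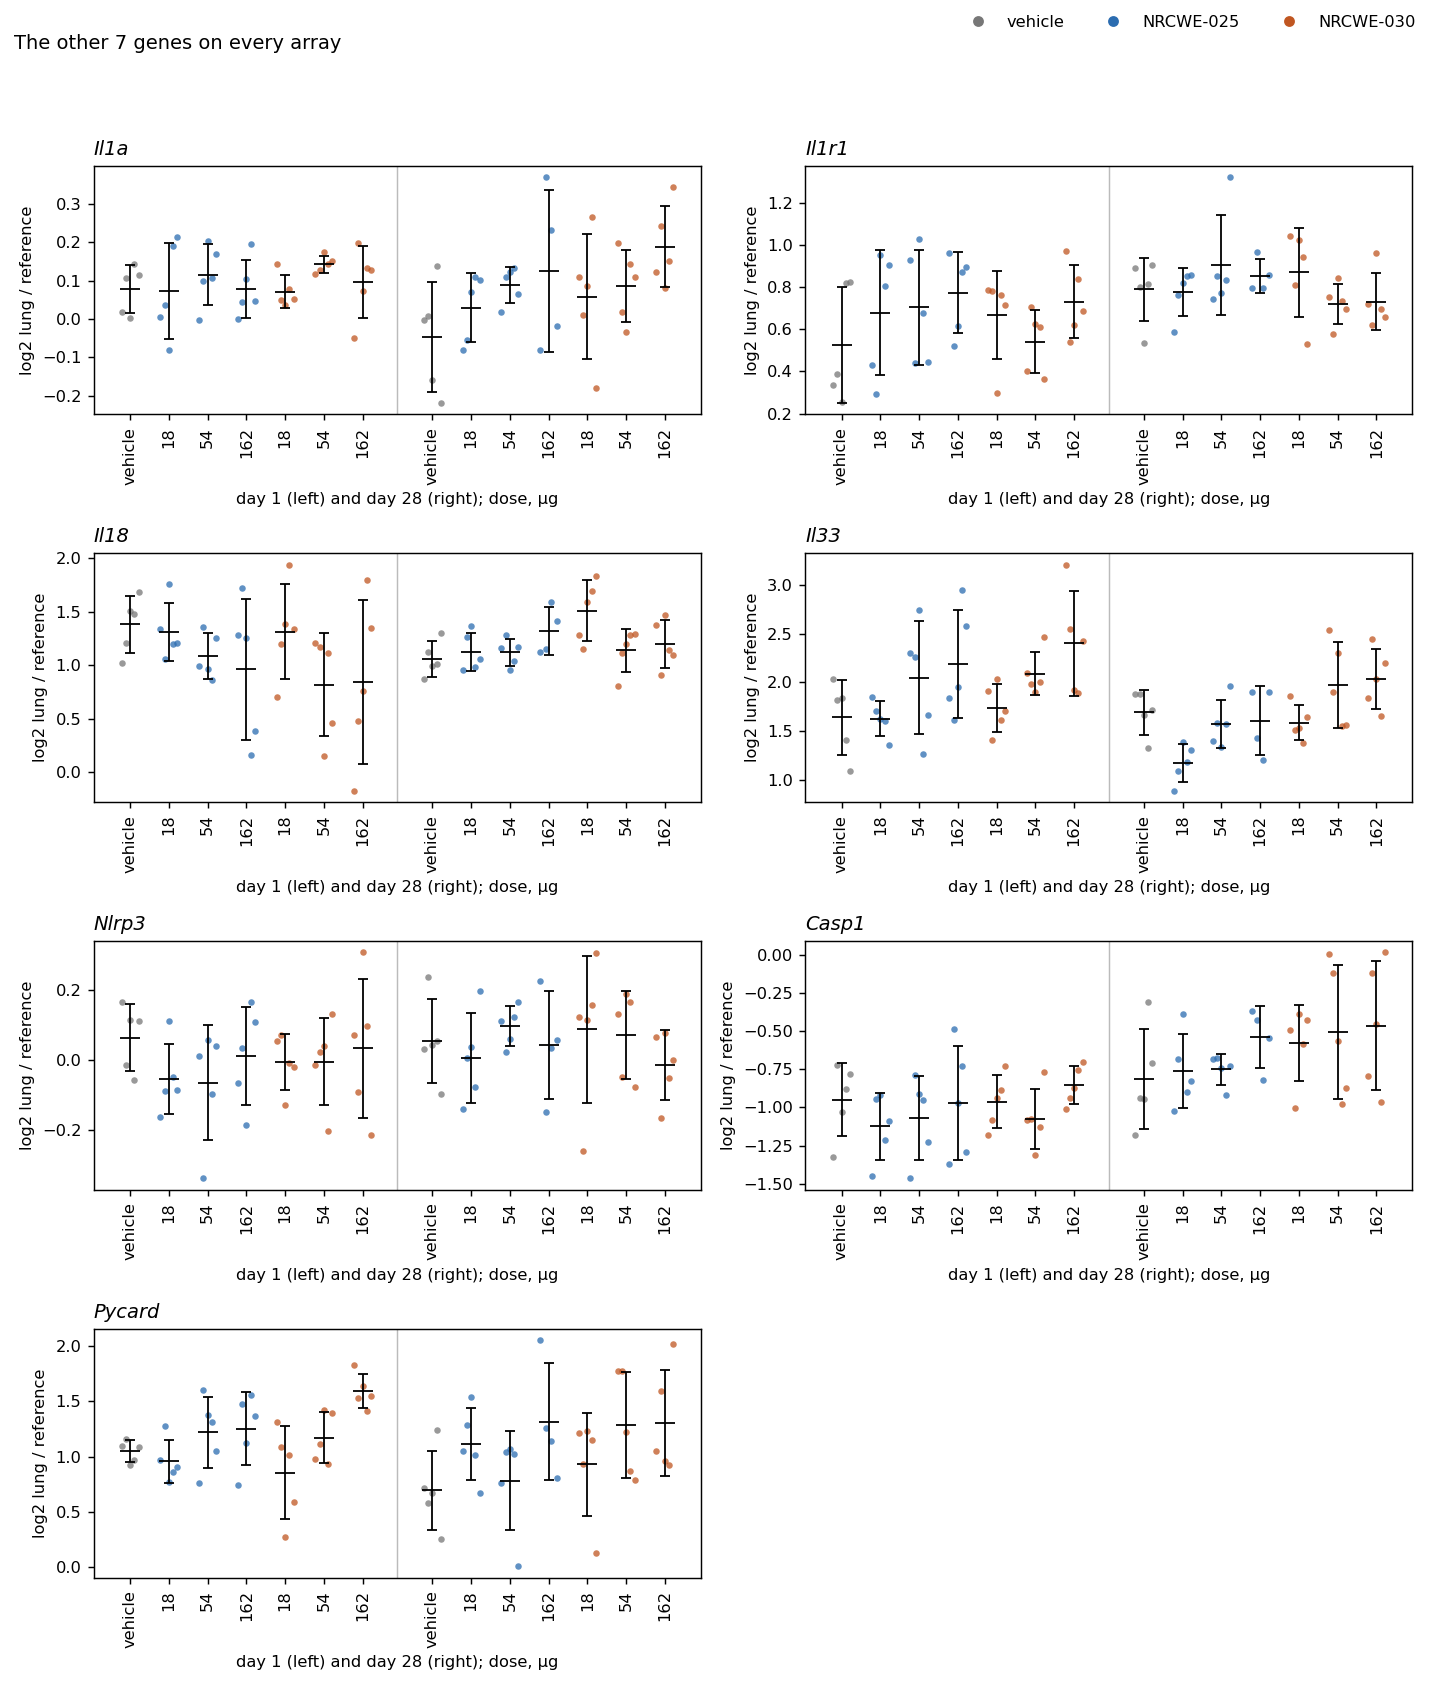
The plot shows the log2 ratio of lung to reference RNA (y axis) in every group (x axis: vehicle and dose in µg, day 1 at the left and day 28 at the right) for the 7 genes without a call at 162 µg. Points are single lungs, coloured by material, and bars are group means with SD. Pycard and Il33 have their highest group means after 162 µg of NRCWE-030 on day 1, and the levels of Casp1 and Il1r1 overlap between vehicle and 162 µg on day 1, while the points of Il1a and many of Nlrp3 are not well above background.

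The other material gave no call among these genes on day 1. After 162 µg of NRCWE-025, 0 of the 10 genes were called by limma, where 0.209% of all genes were. The genes at an unadjusted p under 0.05 were 4, namely Il1b, Il1rn, Il1r2 and Il33. For dose as a whole 0 were called as well, where 0.0214% of all genes were called. The 2 genes at an unadjusted p under 0.05 for dose, Il1rn and Il1r2, ranked 177 and 1033 by p among all genes tested. At 18, 54 and 162 µg the differences of Il1b were 0.63, 0.89 and 0.80, with no order by dose, and those of Il1rn were 0.19, 0.32 and 0.59. Il1rn came nearest to a call. Its 5 lungs at 0.21, 0.38, 0.48, 0.70 and 1.09 all lay above the vehicle lungs, with a log2 difference of 0.59 (SE 0.13, adjusted p = 0.0633). It was called without replicate 1 or replicate 3 of its 162 µg group (adjusted p = 0.0289 and 0.0467) and under 4 other settings. Il1b ran from 2.03 to 4.31 and Il1r2 from 0.23 to 1.99 after this dose, and for both genes the top of the range was 1 lung far above the other 4, whose highest values were 2.77 and 1.02. The differences were 0.80 for Il1b (SE 0.34, adjusted p = 0.348) and 0.63 for Il1r2 (SE 0.22, adjusted p = 0.221). Within the 2 slides that carried both groups, Il1rn differed by 0.29 and 0.38, while the difference of Il1b was below 0 on 1 slide (-0.25). Il1r2 differed by -0.04 and 0.22 within these slides. Il33 was lower on both, by -0.23 and -0.20, against a difference of 0.55 over all lungs of the groups.

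The materials were set against each other directly. No gene of the set was called between NRCWE-030 and NRCWE-025 over the doses, on day 1 (0.155% of all genes called) or on day 28 (0.241%). On each day 2 of the set had an unadjusted p under 0.05, a threshold at which no share of all genes is given. The widest gap at 162 µg on day 1 was that of Il1r2, 0.73 higher after NRCWE-030 (SE 0.20), with an adjusted p of 0.226 over the doses. Without replicate 4 of the 162 µg NRCWE-025 group it was called. For Il1rn the gap was 0.33 (adjusted p = 0.577) and for Il1b it was 0.47 (adjusted p = 0.839). A call after NRCWE-030 and none after NRCWE-025 is therefore not a shown difference between the materials for any of these genes.

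At 18 and 54 µg no gene of the set was called by limma in any contrast. Over all genes, the shares called on day 1 were 0% at both doses for NRCWE-025, and 0.00536% at 18 µg and 0.0804% at 54 µg for NRCWE-030. On day 28 the share for NRCWE-025 was 0.059% at 18 µg and 0.0268% at 54 µg. That for NRCWE-030 was 0.118% at 18 µg and 0.0536% at 54 µg. At an unadjusted p under 0.05, 54 µg on day 1 had Il1b and Il1rn for NRCWE-025, and Il1b, Il1rn and Il1r2 for NRCWE-030. All of these were higher than vehicle, and 18 µg on day 1 had none for either material. On day 28 the directions were mixed. There 18 µg had Il1r2 (log2 difference -0.41) and Il33 (-0.52) for NRCWE-025, and Il1r2 (-0.37) and Il18 (0.45) for NRCWE-030. The 54 µg dose had Il1r2 (-0.39) for NRCWE-025, and Il1b (-0.73), Il1rn (0.42) and Pycard (0.59) for NRCWE-030.

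By day 28 no gene of the set was called at 162 µg or for dose. At 162 µg 0.0161% of all genes were called for NRCWE-025 and 0.0965% for NRCWE-030. For dose the same shares were 0.0268% and 0.102%. The dose test left 2 and 3 genes of the set at an unadjusted p under 0.05, without a share of all genes at that threshold. Of the set, 3 genes had an unadjusted p under 0.05 at 162 µg for each material, among them Il1rn and Pycard in both. Il1rn ran from -0.15 to 0.20 in vehicle lungs of day 28 and was 0.18, 0.44, 0.52, 0.86 and 0.96 after 162 µg of NRCWE-030. With 4 of 5 exposed lungs above all controls, its log2 difference was 0.56 (SE 0.14, adjusted p = 0.223), and it was called with slide as a random block (0.58, adjusted p = 0.0495). After 162 µg of NRCWE-025 it was 0.14, 0.20, 0.49 and 0.72, a difference of 0.36 (adjusted p = 0.488). Pycard differed by 0.61 after NRCWE-030 (adjusted p = 0.605) and 0.62 after NRCWE-025 (adjusted p = 0.618), where its controls ranged widely, from 0.26 to 1.25.

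Il1b and Il1r2 had differences below 0 on day 28, which stood beside higher levels in the vehicle lungs of that day. Il1b was 1.81, 2.76, 2.87, 3.18 and 3.21 in vehicle lungs of day 28 and ran from 1.91 to 2.62 after 162 µg of NRCWE-030, a difference of -0.39 (adjusted p = 0.765). Il1r2 was 0.12, 0.42, 0.81, 1.06 and 1.17 in vehicle lungs and ran from 0.22 to 0.84 after the same dose, a difference of -0.23 (adjusted p = 0.814). The vehicle lungs of both days were compared: Il1b differed by 0.86 (SE 0.32, adjusted p = 0.382) and Il1r2 by 0.40 (SE 0.20, adjusted p = 0.579), both higher on day 28. None of the 10 genes was called there, where 0.0375% of all genes were called, and 3 had an unadjusted p under 0.05. The mean level of 13 neutrophil markers moved with these values, at 1.21 to 1.65 in vehicle lungs of day 1, 1.33 to 2.01 in those of day 28 and 1.12 to 1.51 after 162 µg of NRCWE-030 on day 28, and its part in them was not tested. Time since instillation and age of the mice cannot be told apart in the contrast of vehicle lungs.

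The difference between days was tested itself. For NRCWE-030, the effect of 162 µg on Il1r2 was larger on day 1 than on day 28 by 1.59 on the log2 scale (SE 0.28, adjusted p = 0.00105), which was the 1 gene of the set called, where 0.198% of all genes were. Il1r2 was above the vehicle by 1.36 on day 1 and differed from it by -0.23 on day 28, beside the higher vehicle level on day 28. The difference between days was 2.43 with the brighter Il1r2 probe alone and 4.04 with the scanner's log ratio, and was called in both. For Il1b the same difference was 1.67 (SE 0.45) with an adjusted p of 0.101, and it was called without replicate 4 of the day 28 vehicle group, which held its lowest vehicle value of that day, and under 3 other settings. For Il1rn it was 0.35 (adjusted p = 0.684). For NRCWE-025, 0 of the 10 genes were called between days, where 0.059% of all genes were called, and 3 had an unadjusted p under 0.05. The differences there were 1.14 for Il1b (adjusted p = 0.343) and 0.80 for Il1r2 (adjusted p = 0.28).

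**Figure D3:**
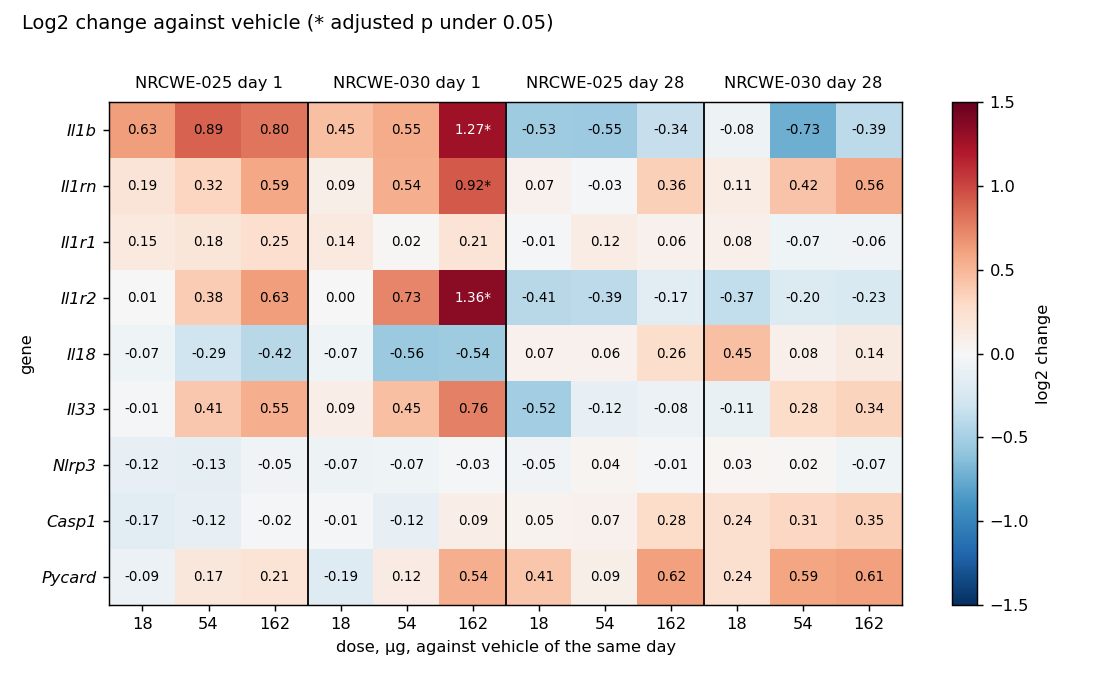
The plot shows, for each gene of the set except Il1a (rows), the log2 difference from the vehicle of the same day for each material, dose in µg and day (columns), with its value and colour and a star for an adjusted p under 0.05. The starred cells are Il1b, Il1rn and Il1r2 after 162 µg of NRCWE-030 on day 1, and the row of Nlrp3 rests on a probe above background on 49 of 69 arrays.

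Ordered by group mean, Il1b, Il1rn, Il1r2, Il33 and Pycard had their highest level in lungs given 162 µg of NRCWE-030 on day 1. The highest level of Casp1 was after the same dose on day 28, of Il18 after 18 µg of NRCWE-030 on day 28, and of Il1r1 after 54 µg of NRCWE-025 on day 28. The lowest group mean was that of vehicle lungs of day 1 for Il1b, Il1rn and Il1r1, and of vehicle lungs of day 28 for Pycard. It was NRCWE-025 at 18 µg on day 28 for Il1r2 and Il33, the same dose on day 1 for Casp1, and NRCWE-030 at 54 µg on day 1 for Il18. For each gene ordered here, the levels of all 13 pairs of neighbours in that order overlapped. The step from the highest mean of Il1r2 to the next, NRCWE-030 at 54 µg on day 1, was 0.63, and that to the lowest mean of Il33 was 0.40, each larger than the SD of both neighbouring groups. The distance from the lowest to the highest group mean was 1.37 for Il1r2, 1.27 for Il1b, 1.22 for Il33, 0.92 for Il1rn and 0.89 for Pycard, and it was 0.38 for Il1r1. Il1a and Nlrp3 are left out of this order because their probes were often not well above background.

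The probes were also tested one by one, and on day 1 the highest dose of NRCWE-030 gave calls for 5 of the 14, where 0.862% of all 40831 probes were. Il1rn was carried by the probe A_52_P431159, which was well above background on 68 of 69 arrays. It read -0.38, -0.10, 0.10, 0.22 and 0.39 in vehicle lungs and 1.44, 1.76, 1.86, 1.99 and 2.03 in exposed lungs, a 3.41-fold difference (log2 difference 1.77, SE 0.20, adjusted p = 0.000195). The other Il1rn probe, A_51_P307166, was above background on 4 of 69 arrays and on none of the lungs of either group here, so it gives no difference. For Il1r2, A_51_P470079 read 0.38 to 0.70 in vehicle lungs and 1.61, 2.05, 2.44, 3.17 and 3.55 in exposed lungs, a 4.05-fold difference (2.02, SE 0.28, adjusted p = 0.00136). The dimmer Il1r2 probe, A_52_P417890, went from 0 of 5 vehicle lungs to 5 of 5 exposed lungs well above background, which set the exposed lungs at least 1.56-fold higher (adjusted p = 0.00668). The bound takes, for each vehicle array, the lowest signal of a probe well above background, or the probe's own signal where that was higher. Both Il1r2 probes thus moved one way, and for Il1rn a single probe carried the measurement.

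The single Il1b probe was called as well (adjusted p = 0.0212). Of the Pycard probes, A_51_P438821 was called with a difference of 0.58 (SE 0.13, adjusted p = 0.0289), and A_51_P438820 differed by 0.50 (adjusted p = 0.353). The count of 5 was 3 without replicate 3 of the day 1 vehicle group or without replicate 1, 2 or 3 of the 162 µg group. In the other fits no probe of the set was called by limma, where 0.0931% of all probes were called for NRCWE-025 on day 1, 0% for NRCWE-025 on day 28 and 0.0514% for NRCWE-030 on day 28. At an unadjusted p under 0.05 these fits had 6, 4 and 4 of the 14 probes. After 162 µg of NRCWE-025 on day 1, A_52_P431159 for Il1rn differed by 1.09 (SE 0.22, adjusted p = 0.06). In that group 2 of 5 lungs had A_52_P417890 for Il1r2 above background, too few for a bound on the difference.

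Genes around the set were described by fixed lists. Of the other ligands, receptors and inhibitors of the family, 1 of 13 tested was called after 162 µg of NRCWE-030 on day 1: Il18bp, whose product binds and neutralises interleukin-18, was 0.93 higher (SE 0.12, adjusted p = 0.000578). Of 22 genes of interleukin-1 receptor signalling, 1 was called, the adaptor Myd88 (0.42 higher, adjusted p = 0.0372). Of 23 other inflammasome and pyroptosis genes, 1 was called, Mefv, which encodes the sensor pyrin (1.27 higher, adjusted p = 0.0306). The medians of these lists were 0.00, 0.07 and 0.07, in the same order, beside 0.00 for all genes. In that contrast 1.69% of all genes were called. At an unadjusted p under 0.05 it had 2 of 13, 3 of 22 and 6 of 23 genes, of which 1, 3 and 6 were higher. Of all tested genes of the lists, 7, 15 and 18 had a difference above 0. In the other fits no gene of these lists was called, and at most 3 of any list had an unadjusted p under 0.05.

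Genes known to be induced by interleukin-1 formed the last list, which was chosen with earlier results of these data known, so its count is no independent evidence of direction. Of 27 such genes, 12 were called as higher after 162 µg of NRCWE-030 on day 1 and 0 as lower, where 1.69% of all genes were called, 5 were called for dose and 2 already at 54 µg, and the list's median difference was 0.65 beside 0.00 for all genes. The acute-phase protein gene Saa3 was 7.31 higher on the log2 scale (SE 0.82, adjusted p = 0.000105), the protease inhibitor Timp1 3.18 higher (adjusted p = 0.00127) and the iron-binding Lcn2 3.07 higher (adjusted p = 0.000105). The monocyte-attracting chemokines Ccl7 and Ccl2 were 2.43 and 2.09 higher (adjusted p = 0.0155 and 0.02), and Ccl4 was 2.10 higher (adjusted p = 0.0234). Genes of this list are also induced by other cytokines, so their level is not a readout of interleukin-1 alone. After 162 µg of NRCWE-025 on day 1, 0 of 27 were called by limma, 15 had an unadjusted p under 0.05, and the median difference was 0.44. On day 28, 0 of 27 were called for either material, but 5 (NRCWE-025) and 9 (NRCWE-030) had an unadjusted p under 0.05, and the medians were 0.16 and 0.34.

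**Figure D4:**
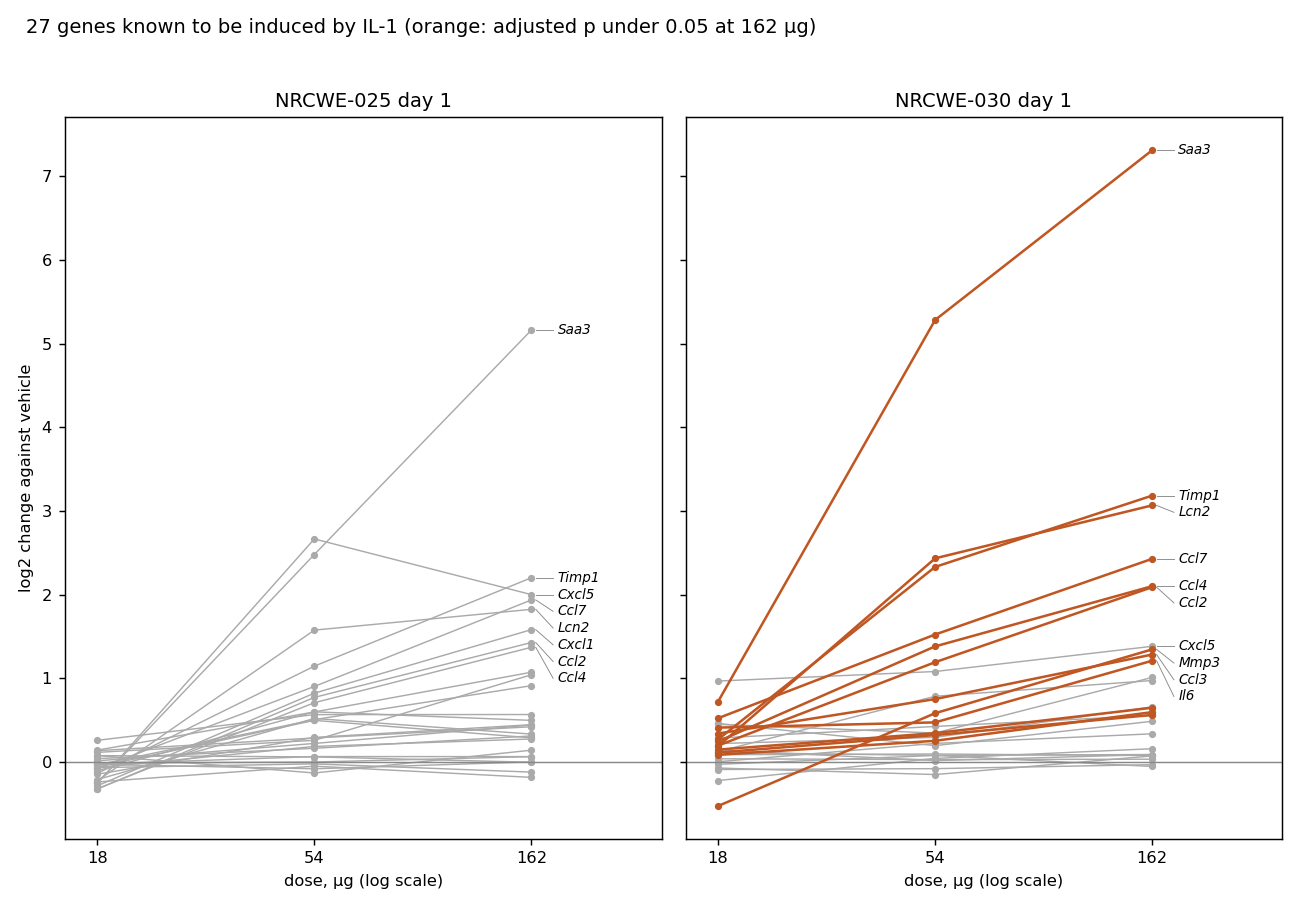
The plot shows the log2 difference from vehicle on day 1 (y axis) against dose in µg on a log scale (x axis) for 27 genes known to be induced by interleukin-1, with NRCWE-025 at the left and NRCWE-030 at the right, a line for each gene, and orange for an adjusted p under 0.05 at 162 µg. After NRCWE-030, 12 lines are orange, with Saa3 highest at 7.31, and after NRCWE-025 none is.

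Markers of cells that make or respond to these molecules moved with the called genes in part. After 162 µg of NRCWE-030 on day 1, 1.69% of all genes were called and 1.22% were called as higher. Of 13 neutrophil markers, 2 were called as higher in that contrast, Csf3r (1.25) and Trem1 (0.60). The abundant S100a8 and S100a9 differed by 0.30 and -0.20 without a call. At an unadjusted p under 0.05 there were 4, all higher, and 10 of 13 had a difference above 0, with a list median of 0.30 beside 0.00 for all genes. The mean level over the list was 1.21 to 1.65 in vehicle lungs and 1.42 to 1.93 in exposed lungs, so the groups overlapped. Granule genes of the list ranged from Elane, well above background on 1 of 69 arrays, through Ngp on 20, Camp on 33 and Mpo on 54, to Ltf, Mmp8 and Mmp9 on all 69. Of 13 monocyte and macrophage markers, 2 were called as higher, Fcgr1 (0.95) and Itgam (0.46), 6 had an unadjusted p under 0.05, of which 5 were higher, and the list median was 0.27, with a mean level of 2.05 to 2.40 in vehicle and 2.18 to 2.51 in exposed lungs. The part of these cells in the levels of Il1b, Il1rn and Il1r2 was not tested. After 162 µg of NRCWE-025 on day 1 no marker of either list was called by limma, with 1 neutrophil and 3 monocyte and macrophage markers at an unadjusted p under 0.05. On day 28 after 162 µg of NRCWE-030, 1 neutrophil marker was called, Mmp9 (-1.11), where 0.0965% of all genes were. At an unadjusted p under 0.05 there were 6 of 13, all lower. Only 1 of 13 had a difference above 0, and the list median was -0.31. No monocyte and macrophage marker was called there, but 4 had an unadjusted p under 0.05, all higher. Of that list 12 of 13 were above 0, with a median of 0.37. Its mean level was 2.34 to 2.66, against 1.99 to 2.36 in vehicle lungs.

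Tissue other than lung varied between pieces. The mean level of 6 heart muscle markers ran from 0.96 to 5.02 in vehicle lungs of day 1 and from 0.19 to 3.70 after 162 µg of NRCWE-030, with no call by limma and none at an unadjusted p under 0.05. Of 5 fat markers, 1 was called as lower in that contrast, Cidec (-1.36), and of 4 fibroblast markers 1, Pdgfra (-0.55), where 1.69% of all genes were called. None of the lung epithelium (9), endothelium (4), B cell (5) or T cell (5) markers was called by limma at 162 µg in any fit, and for that dose of NRCWE-030 on day 1 the counts at an unadjusted p under 0.05 were 3, 2, 2 and 0, all of them lower than vehicle. The list medians there were -0.43 for epithelium and -0.25 for endothelium. The part of such tissue in the levels of the 10 genes was not tested.

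Across all 69 arrays the genes of the set varied together in part, which is a description, since the arrays share doses, days and slides. Il1rn was most like Il1r2 (Pearson r = 0.761) and Pycard (0.725), and Il1b was most like Il1r2 (0.718). Il18 ran against Il1r2 (r = -0.613), and Casp1 had no r above 0.353 with another gene of the set. Over all genes, the 3 most like Il1b were Csf3r (0.741), Asprv1 (0.739) and Mefv (0.720). For Il1rn they were Ly6f (0.876), Lcn2 (0.862) and Ccl12 (0.861), for Il1r2 they were Orm1 (0.835), Orm2 (0.823) and Clec4d (0.821), and for Il33 they were Ctps (0.880), Ccl7 (0.838) and Ccl2 (0.805). Pycard was most like Amdhd2 (0.874), Sting1 (0.870) and Slc16a6 (0.848), and Casp1 was most like Tlr7 (0.846), Slamf7 (0.820) and Glipr1 (0.815). For Il18 the nearest were Fam89a (0.817), Ear10 (0.798) and Ear1 (0.791), and for Il1r1 they were 1110004F10Rik (0.737), Mettl14 (0.707) and Oat (0.683). For Nlrp3 and Il1a, whose probes were often not well above background, the highest r was 0.464 (Prss22) and 0.591 (Adhfe1).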

How the data were processed

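The 69 samples were 2-colour Agilent arrays with lung RNA in Cy5 and reference RNA in Cy3, with no dye swap, so dye bias of a probe is shared by all groups. The deposited scanner files, made per the file headers with Agilent Feature Extraction 11.0.1.1, hold median spot and background intensity, 0 or 1 flags, and a log10 ratio computed by that software. The authors also deposited a series matrix of log2 values, used with the scanner's log ratio as alternatives only.

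Where the scanner flagged a local background as an outlier, the median of the unflagged backgrounds on that array took its place, because the background model otherwise failed on some arrays (lowest fitted mean -1152.5 in Cy3, against -5.66). Background was corrected with normexp (offset 50), and loess was applied within arrays with no scaling between arrays (R 4.3.3, limma 3.58.1). Spots of a probe and then probes of a symbol were combined by the median. Of 41174 probes, 27479 (66.7%) matched a RefSeq symbol by accession.

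Per material and day, limma was fitted to vehicle and the 3 doses, with a moderated F-test for dose and contrasts for each dose. Materials, days and vehicles were compared in a fit of all 14 groups. Tests were two-sided, and samples were grouped from their labels. No label gives a replicate pairing. The genes, lists and markers were chosen with earlier results of these data known. The named genes were all 10 members, the 3 genes most correlated with each, and at most 6 called genes per list and comparison by size of change. Scripts were tested on simulated data. Figures used Python 3.11.15 and matplotlib 3.10.9. The number of arrays limits the precision. Alternatives covered background, scaling, filters, probe choice, slide, scan day, and arrays left out; that without the 3 arrays least like the median was added after seeing the data.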

Additional observations from a re-analysis of the deposited data

Results flagged for a closer look

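In 6 of 140 combinations of gene and group, 1 lung lay farther from the others than Dixon's critical value for its group size, and chance alone marks about 1 in 20. Il1r1 gave 3 of them: 0.30 in replicate 3 of NRCWE-030 18 µg on day 1 (others 0.71 to 0.79), 0.53 in replicate 3 of the day 28 vehicle (others 0.80 to 0.90) and 1.32 in replicate 5 of NRCWE-025 54 µg on day 28 (others 0.74 to 0.85). The first and last of these are arrays that were also least like the median array over all genes. Il1r2 was 0.60 in replicate 1 of NRCWE-030 18 µg on day 1 (others 0.20 to 0.31). Casp1 was -0.92 in replicate 4 of NRCWE-025 54 µg on day 28 (others -0.74 to -0.68). Pycard was 0.13 in replicate 5 of NRCWE-030 18 µg on day 28 (others 0.94 to 1.23).

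The effect of 162 µg of NRCWE-030 on Il1r2 differed between days by 1.59 on the log2 scale (SE 0.28, limma adjusted p = 0.00105), tested as the difference of the day 1 and day 28 effects. This stood beside a vehicle level of Il1r2 that was 0.40 higher on day 28 than on day 1 (SE 0.20, limma adjusted p = 0.579).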

How the results depend on the processing

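Il1rn and Il1r2 were called after 162 µg of NRCWE-030 on day 1 under all 12 alternatives and with each array left out in turn, with log2 differences of 0.90 to 1.77 and 1.33 to 3.16 over the alternatives, and none of the changes that were called reversed in any alternative. Il1b kept its direction in all 12 and its call in 10. The call was lost when slide, or scan day, entered as a fixed block. The number of genes called at 162 µg in that fit was 2 to 4, over the alternatives and with arrays left out.

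Some counts moved. At 162 µg of NRCWE-025 on day 1, 1 gene (Il1rn) was called with dim probes left out, with the brightest probe of each gene, with all 14 groups in 1 fit and under a random block for slide, against 0. At 162 µg of NRCWE-030 on day 28, 1 (Il1rn) was called with slide as a random block, against 0. For dose of NRCWE-030 on day 1, 4 were called under a random block for slide, and also without the 3 arrays least like the median, against 2. Between days for NRCWE-030, 2 (Il1b and Il1r2) were called with the scanner's log ratio, scan day as a fixed block or slide as a random block, against 1. The cause was not tested.

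With 1 array left out in turn, the ranges were 0 to 1 for the day 1 contrast of NRCWE-025 at 162 µg, 2 to 4 for dose of NRCWE-030 on day 1 (4 if replicate 1 of its 18 µg group was left out), 1 to 2 between days for NRCWE-030, 0 to 1 between materials on day 1, and 3 to 6 for member probes. The other counts of 0 were the same with each array left out. No paired analysis was possible because the labels give no shared replicate numbers. Scaling of average intensities between arrays leaves log ratios as they are by construction. It is among the alternatives counted above, but it could not change a call. Signal over background limits Il1a, Nlrp3, 1 Il1rn probe and 1 Il1r2 probe.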
